A study of Mus musculus with 2 samples.

Results

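Aminoacyl-tRNA synthetases are the enzymes that load each transfer RNA (tRNA) with its amino acid. Members were taken by gene symbol: a one-letter amino acid code followed by "ars", with or without a final 1 or 2, or Eprs, Eprs1, Farsa, Farsb, Fars2, Ears2 or Pars2. This rule found 37 of 56748 genes, of which 18 encode cytosolic enzymes, 17 mitochondrial enzymes (the symbols ending in 2) and 2, Gars and Kars, enzymes that serve both compartments. The rule itself reads symbols and no expression value. The files use the older symbols Sars and Lars for the cytosolic seryl- and leucyl-tRNA synthetases now called Sars1 and Lars1.

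The enzymes were measured in lineage-depleted bone marrow cells of C57BL/6 mice by droplet-based 3′ single-cell RNA sequencing, in 1 wild-type (WT) library and 1 library from mice in which Nat10 was conditionally knocked out (cKO). The labels name neither the Cre driver, the age of the animals nor the deleted part of the gene; the series text speaks of 5 mice, but nothing ties a cell to a mouse. With 1 library per genotype genotypes could not be compared by a test, differences have no replicate behind them, and the intervals cover counting error only. Of 15848 WT barcodes 12537 were kept, with 284447821 unique molecular identifiers (UMIs, each standing for 1 captured transcript) and a median of 18600 per barcode; of 13479 cKO barcodes 11239 were kept, with 267401978 UMIs and a median of 21119. Of the kept barcodes 40 occurred in both libraries. Levels are given as CPM, the UMIs of a gene over all UMIs of the set on a common scale. A 3′ tag is in principle taken once per transcript, so CPM values of different genes were compared without division by length. Whether levels depend on gene span was not tested. Nat10, the targeted gene, stood at 47.1 CPM (WT) and 38.6 CPM (cKO), a log2 ratio of −0.29; 3′ tags outside the deleted part would not show the deletion.

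Each synthetase recognises 1 amino acid and the tRNAs that carry it, and the cytosol and the mitochondria are served by largely separate sets of enzymes, all encoded in the nucleus. Several cytosolic enzymes are held in the multisynthetase complex by scaffold proteins, and many cytosolic synthetase genes are known targets of ATF4, the transcription factor of the amino acid stress response. NAT10, with its adaptor THUMPD1, acetylates a cytidine in the tRNAs for serine and leucine, which is why the enzymes for these 2 amino acids are set side by side.

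Genes regulated by ATF4 are known to carry a C/EBP-ATF response element, and the promoters show which members have its letters. The motif TGATGNAA was searched on both strands in RefSeq promoters of GRCm38.p6, each running from 250 bases before to 50 bases after an annotated start. A promoter was matched for 27 members, and 5 of these held the motif. All 5 were among the 8 known ATF4 targets with a promoter (62.5%). It was held by 0 of 5 other cytosolic or shared members and 0 of 14 mitochondrial members. Of all 27025 genes with a promoter of 300 bases 4.51% held it, and of all 32851 such promoters 3.97%. The stretches around the matches are shown because, of the family, they set apart members of 1 known mode of regulation; no other motif was searched. They are written 5′ to 3′ on the gene's own strand, with the motif or its reverse complement in capitals. The build differs from the mm39 build of the counts, so these coordinates were used with no value from the files.
Aars, chr8:111033700-111033767, plus strand: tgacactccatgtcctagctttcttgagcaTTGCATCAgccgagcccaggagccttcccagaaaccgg
Gars, chr6:55037941-55038008, plus strand: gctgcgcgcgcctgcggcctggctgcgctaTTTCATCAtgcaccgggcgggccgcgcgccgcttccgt
Iars, chr13:49682107-49682159, plus strand: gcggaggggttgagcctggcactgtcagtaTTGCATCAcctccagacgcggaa
Tars, chr15:11399636-11399703, minus strand: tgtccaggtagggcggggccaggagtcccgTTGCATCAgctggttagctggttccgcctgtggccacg
Yars, chr4:129189876-129189932, plus strand: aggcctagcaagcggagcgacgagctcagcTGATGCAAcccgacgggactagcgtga

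The match began 30 bases before the annotated start of Gars and 15 bases before that of Tars. It began 112 bases before the start of Aars, which holds a second match outside the stretch shown. In Iars and Yars it lay 7 and 3 bases after the first transcribed base. The members that share the motif did not share a direction in the cKO library: their log2 ratios of cKO over WT were −0.08 for Aars, −0.04 for Yars, 0.02 for Iars, 0.20 for Tars and 0.38 for Gars. A match is a description of these letters and not evidence of binding.

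All 37 members were measured, meaning 50 or more UMIs over the libraries combined, and most stood slightly higher in the cKO library. Over all kept barcodes 30 of 37 log2 ratios lay above 0 and 7 below, while the median over all 21476 measured genes was −0.10 and 38.9% of genes lay above 0. The family's median was 0.09, and 34 of 37 members lay above the median of all genes. Without Lars2 the median was 0.10, with 30 of 36 members above 0. Differences were small. A gene was called where its levels differed by at least 1.2-fold: 3 members were called higher (Yars2, Gars and Sars), beside 16.9% of all genes, and 1 lower (Lars2), beside 32% of all genes. After TMM scaling, which sets the libraries level on the bulk of genes, the counts were 11 higher and 1 lower, beside 23.6% and 24.3% of all genes. At a fold of 1.5, 0 members were higher and 1 (Lars2) lower, beside 5.94% and 13% of all genes.

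Cells were grouped by clustering both libraries together, and clusters were named from marker genes; the ending "-like" marks that these names rest on RNA alone. Of 46 clusters 36 were named, 9 of them with no marker of their class among their 10 leading genes. All 4 erythroid progenitor-like clusters were of this kind and took their name from 4 to 10 of 11 markers detected above the other clusters. In all, 11 classes had at least 100 cells in each library. HSC/MPP-like cells are the class of haematopoietic stem cells and multipotent progenitors, GMP-like cells that of granulocyte-monocyte and neutrophil progenitors, and pDC-like cells that of plasmacytoid dendritic cells. T/NK-like (T, NK and innate lymphoid), plasma-like and stromal/endothelial-like clusters were present although the label is lineage-negative. Unnamed clusters held 28.7% of WT and 29.2% of cKO barcodes.

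The ratios were smaller once the mix of clusters was set equal. Erythroid progenitor-like cells, which had the highest synthetase levels, made up 13.7% of kept WT and 19.5% of kept cKO barcodes. With the cKO clusters reweighted to the WT mix, 17 of 37 members lay above 0, 25 above the median of all genes (−0.08), and 0 were called higher while Lars2 was still called lower, beside 13.2% and 24.4% of all genes. The family's median was then −0.02, with and without Lars2. In a summed library, more cells of a type and more RNA per cell cannot be told apart.

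**Figure D1:**
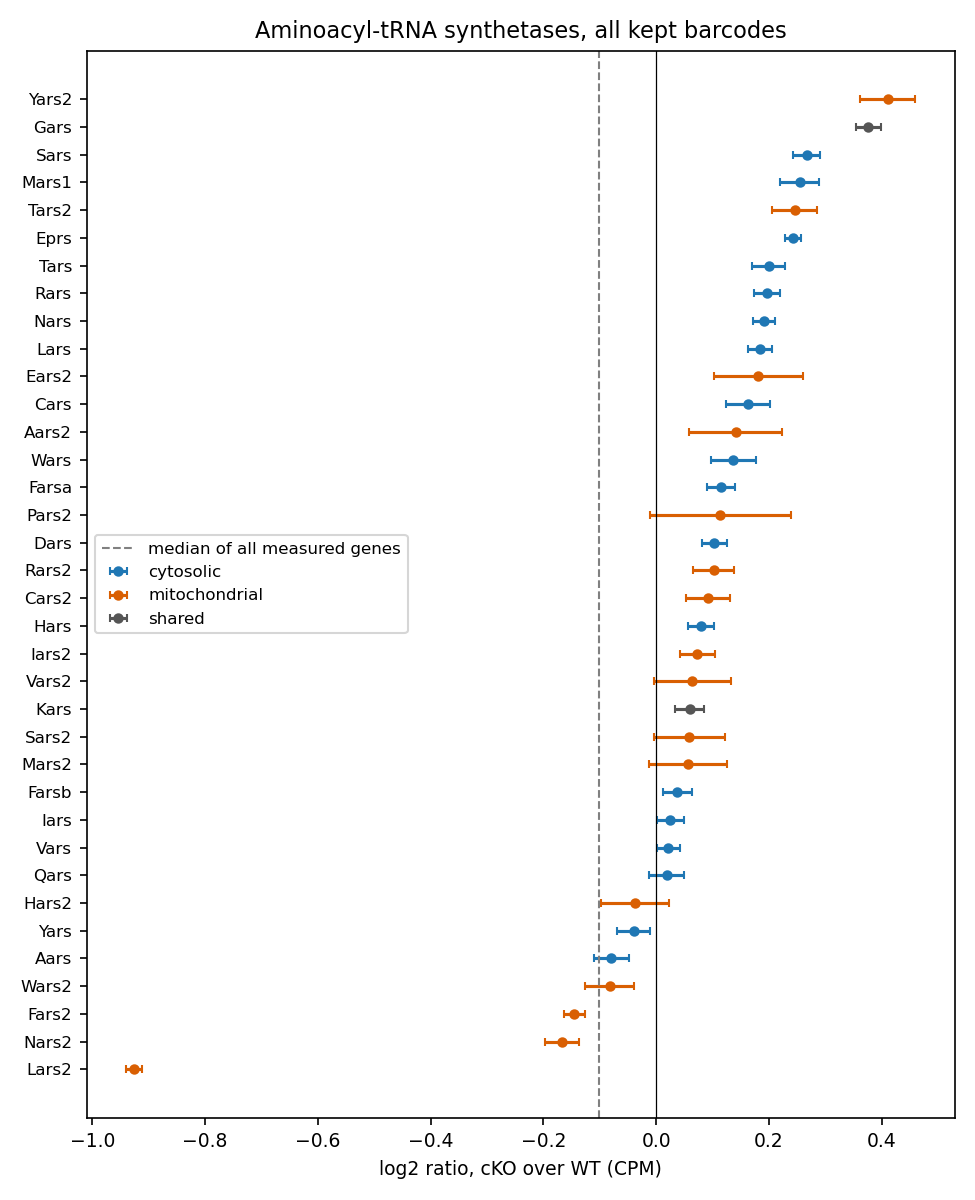
The log2 ratio of cKO over WT CPM (x axis) for 36 of the 37 members (y axis), over all kept barcodes, coloured by compartment; bars are exact 95% intervals that cover counting error only, the solid line marks 0 and the dashed line the median of all measured genes at −0.10. Lars2 stands alone at −0.93, and 33 of the 36 members drawn lie to the right of the dashed line.

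The cytosolic enzymes stood a little higher in the cKO library and the mitochondrial enzymes, without Lars2, about as high. The 18 cytosolic enzymes had a median log2 ratio of 0.13, from −0.08 (Aars, the alanine enzyme) to 0.27 (Sars); 16 lay above 0 and all 18 above the median of all genes. The 17 mitochondrial enzymes had a median of 0.07, from −0.93 (Lars2) to 0.41 (Yars2, the mitochondrial tyrosine enzyme), with 12 above 0 and 14 above the median of all genes. Without Lars2 their median was 0.08. Reweighted to the WT mix the 2 medians were 0.03 and −0.04, and 13 of the 18 cytosolic enzymes lay above the median of all genes.

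Summed over the enzymes, the cytosolic set took 1732 CPM (WT) and 1901 CPM (cKO), a log2 ratio of 0.13 (0.13 to 0.14). The mitochondrial set took 1006 and 800.3 CPM, a log2 ratio of −0.33 (−0.34 to −0.32). Without Lars2 the mitochondrial enzymes summed to 569 and 570.3 CPM, giving a log2 ratio of 0.00 (−0.01 to 0.01). The lower mitochondrial sum thus rests on Lars2, which made up 43.5% of the mitochondrial enzyme UMIs of WT and 28.7% of those of cKO barcodes. The cytosolic sum was 1.72 times the mitochondrial sum for WT and 2.37 times for cKO. Without Lars2 these figures were 3.05 and 3.33.

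Among cytosolic and shared enzymes the highest level belonged to Eprs, the fusion enzyme that loads both glutamate and proline, at 258 CPM (WT) and 306 CPM (cKO) (log2 ratio 0.24; 0.23 to 0.26). The ratio fell short of the 1.2-fold call and was 0.06 with the WT mix. Gars, the glycine enzyme of both compartments, stood at 105 and 136 CPM, a log2 ratio of 0.38 (0.35 to 0.40), the highest of the cytosolic and shared enzymes. Among the 11 cell classes it was above 0 in 10 and called higher in 7 (the shares of all genes follow with Yars2), with plasma-like cells, at −0.31 (−0.75 to 0.14), as the exception. Kars, the lysine enzyme that also serves both compartments, stood at 81.2 and 84.7 CPM overall (0.06), yet was below 0 in 10 of the 11 classes. The 2 shared enzymes thus lay on different sides of 0 in most classes. Both were below 0 in plasma-like cells (Kars at −0.88), and both above 0 in T/NK-like cells (Kars at 0.05).

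Mars1, the methionine enzyme, went from 46.4 to 55.3 CPM (0.25; 0.22 to 0.29) and was above 0 in 10 of 11 classes. Aars had 60.5 and 57.3 CPM, a log2 ratio of −0.08 (−0.11 to −0.05), which was 0.02 after TMM scaling. Farsa and Farsb encode the 2 subunits of the cytosolic phenylalanine enzyme, and their levels were close to each other in both libraries. Farsa stood at 91.3 and 98.9 CPM and Farsb at 89.3 and 91.6 CPM. Their log2 ratios were 0.12 and 0.04.

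Over all kept barcodes, no known grouping tried of the cytosolic and shared enzymes set members apart by sign. The 8 enzymes of the multisynthetase complex were all above 0, with a median of 0.14 (0.02 to 0.25), and of the 12 outside it 10 were above 0, with a median of 0.13 (−0.08 to 0.38). Enzymes of the class I catalytic fold had a median of 0.15 and those of class II 0.11, with 9 of 10 above 0 in each. The 12 known ATF4 targets had a median of 0.19 and 10 above 0, and the 8 other cytosolic or shared enzymes a median of 0.07 and 8 above 0. The spread within each group exceeded the distance between the medians. Within every class the ATF4 targets had the higher median of these 2 groups. It was 0.14 against 0.02 in HSC/MPP-like and 0.12 against −0.05 in GMP-like cells. In GMP-like cells 10 of 12 targets and 3 of 8 others lay above 0, beside 34.9% of all genes. In erythroblast-like cells 10 of 12 and 2 of 8 did, beside 60.2%, but in pDC-like cells 7 of 12 and 5 of 8. The difference was not tested.

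Mitochondrial enzymes were mostly rare messages. The lowest levels in the family were those of Pars2 (proline; 3.63 CPM in the WT, 3.93 in the cKO library), Aars2 (alanine; 8.23 and 9.07 CPM) and Ears2 (glutamate; 8.82 and 10.0 CPM). Yars2 went from 21.2 to 28.1 CPM, a log2 ratio of 0.41 (0.36 to 0.46), and was above 0 in all 10 classes where it was measured and called higher in 6. Of all genes, 12.9% were called higher in GMP-like, 14.4% in HSC/MPP-like, 26.7% in T/NK-like, 18.4% in basophil/mast-like, 23.6% in erythroblast-like and 11.1% in erythroid progenitor-like cells. The shares were 22% in megakaryocyte-like, 14.2% in monocyte-like, 10.6% in plasma-like, 18.2% in pDC-like and 22% in stromal/endothelial-like cells. Tars2, the threonine enzyme, went from 34.0 to 40.3 CPM (0.25; 0.21 to 0.29) and was above 0 in 9 of 11 classes.

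Some mitochondrial enzymes were below 0 in most classes, as was the median of all genes. Nars2, the asparagine enzyme, had 68.2 CPM (WT) and 60.8 CPM (cKO) (−0.17; −0.20 to −0.14) and was called lower in 4 of 11 classes. Fars2, the phenylalanine enzyme, had 170 and 154 CPM (−0.15; −0.16 to −0.13) and was below 0 in 10 of 11 classes. Wars2, the tryptophan enzyme, had 31.7 and 29.97 CPM (−0.08; −0.13 to −0.04). Over all kept barcodes Wars2 thus lay just above the median of all genes (−0.10). It was below 0 in 10 of 11 classes and called lower in 6. Hars2, the histidine enzyme, was below 0 in all 10 classes where it was measured and called lower in 2. Of all genes, 34.4% were called lower in GMP-like, 37.3% in HSC/MPP-like, 22% in T/NK-like, 24.6% in basophil/mast-like, 10.6% in erythroblast-like and 22.8% in erythroid progenitor-like cells. The shares were 34.4% in megakaryocyte-like, 24.4% in monocyte-like, 50.1% in plasma-like, 26.8% in pDC-like and 19.7% in stromal/endothelial-like cells.

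Long genes tended to have lower ratios in these libraries. Across 20600 genes with an annotated span the correlation of log2 ratio with log span was weak (Pearson −0.08, Spearman −0.14, genes being no independent replicates), and Fars2 spans 609 kb and Wars2 98.1 kb, against a median of 30.1 kb for the mitochondrial members. Measured against genes of like span, Fars2 stood at 0.08, Nars2 at 0.06 and Wars2 at 0.11, all on the other side of 0. Yars2 (6.68 kb) kept 0.41 and Lars2 (95.7 kb) stood at −0.73. That scale also moves the median of all genes from −0.10 to 0, so the changes of sign do not show a part of span by themselves. On the like-span scale 11 members were called higher and 1 lower, beside 22.2% and 24% of all genes. TMM scaling, which takes no account of span, also called 11 higher and 1 lower. The part of span in these ratios was not tested.

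For serine, the cytosolic enzyme Sars was higher in the cKO library and its mitochondrial counterpart Sars2 was nearly level. Sars stood at 92.8 CPM (WT) and 112 CPM (cKO), a log2 ratio of 0.27 (0.24 to 0.29). Sars2 stood at 14.5 and 15.1 CPM, a log2 ratio of 0.06 (−0.00 to 0.12), which was −0.02 with the WT mix. The ratio of Sars thus exceeded that of Sars2 by 0.21 (0.14 to 0.28).

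For leucine, the cytosolic enzyme Lars stood at 124 CPM (WT) and 141 CPM (cKO), a log2 ratio of 0.18 (0.16 to 0.21). Lars2, the mitochondrial enzyme, had the highest level of the family in the WT library. It had 437 CPM there against 230 CPM in the cKO library, giving a log2 ratio of −0.93 (−0.94 to −0.91). The 2 leucine enzymes thus differed by 1.11 (1.09 to 1.14) on the log2 scale, and the 2 mitochondrial enzymes, Sars2 and Lars2, by 0.99 (0.92 to 1.05).

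Between the 2 cytosolic enzymes the distance was small: the ratio of Sars exceeded that of Lars by 0.08 (0.05 to 0.12). Measured against genes of like span, it was lower by 0.05 instead. In classes, Sars minus Lars was above 0 in 8 of 11, or in 3 of 11 against genes of like span. In HSC/MPP-like cells Sars went from 65.2 to 78.9 CPM (0.27; 0.18 to 0.37) and Lars from 111 to 121 CPM (0.12; 0.05 to 0.20), a difference of 0.15 (0.03 to 0.28). Megakaryocyte-like cells had Sars at 79.2 and 110 CPM (0.47; 0.32 to 0.62) and Lars at 135 CPM in both libraries (−0.00; −0.13 to 0.12). Erythroblast-like cells were the reverse, with Sars at 112 and 113 CPM (0.01) and Lars at 107 and 125 CPM (0.23; 0.13 to 0.32), a difference of −0.22 (−0.35 to −0.09). Single clusters differed from these class values. In erythroblast-like clusters Sars and Lars stood at 0.10 and 0.19 (the largest), −0.08 and 0.11 (the next) and 0.10 and −0.03 (the smallest). In the larger megakaryocyte-like cluster they stood at 0.35 and 0.13. Sars itself was above 0 in 10 of 11 classes, from −0.18 (−0.51 to 0.15) in stromal/endothelial-like to 0.70 (0.38 to 1.04) in plasma-like cells.

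**Figure D2:**
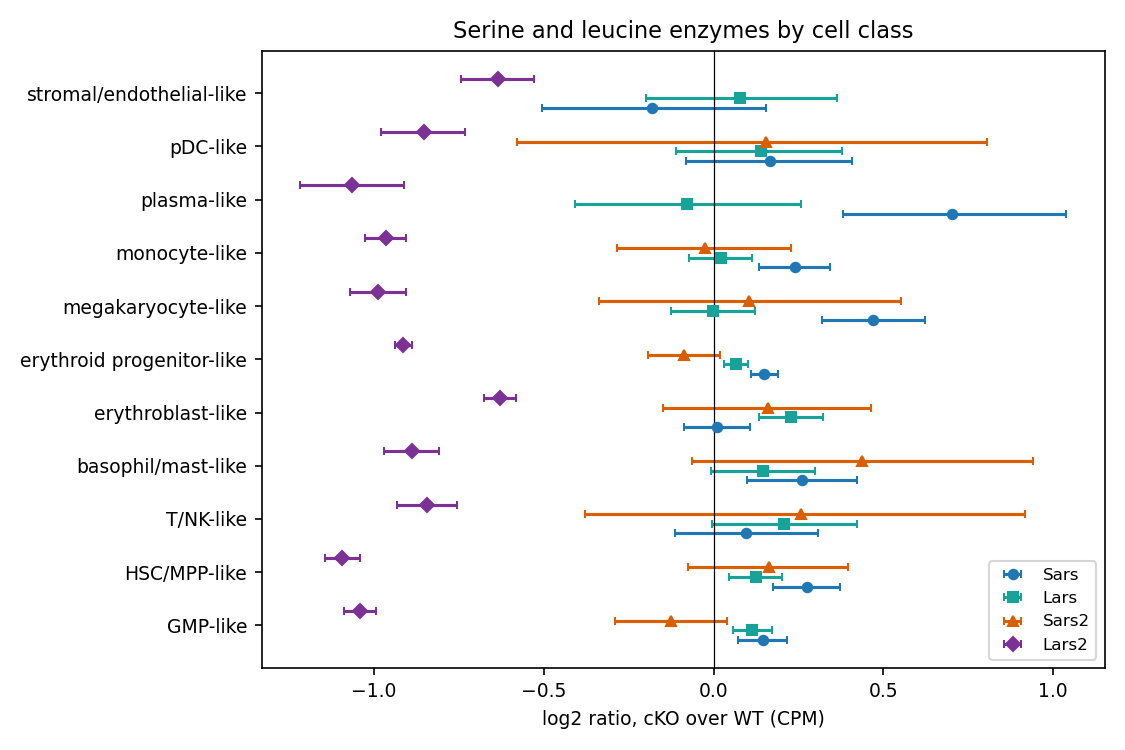
The log2 ratio of cKO over WT CPM (x axis) of the serine enzymes Sars and Sars2 and the leucine enzymes Lars and Lars2 in each of 11 cell classes (y axis); bars are exact 95% intervals that cover counting error only, and points under 50 UMIs are left out. Lars2 lies between −1.09 and −0.63 in every class, apart from the other enzymes, whose intervals mostly overlap.

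Lars2 was lower in the cKO library wherever it was measured. In HSC/MPP-like cells it went from 433 to 203 CPM (−1.09; −1.15 to −1.04), in GMP-like cells from 277 to 135 CPM (−1.04), in erythroid progenitor-like cells from 431 to 229 CPM (−0.91) and in erythroblast-like cells from 658 to 425 CPM (−0.63; −0.68 to −0.58). All 11 classes were called lower, and in 28 of 28 clusters with at least 100 cells in both libraries the ratio was below 0.

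The counts assigned to Lars2 moved together with those of ribosomal RNA. Rn18s-rs5, a gene model related to 18S ribosomal RNA, stood at 21746 CPM (WT) and 11281 CPM (cKO), a log2 ratio of −0.95. Mir6236, a microRNA gene model, stood at 651 and 361 CPM (−0.85). For every 1000 UMIs of Rn18s-rs5 there were 20.1 UMIs of Lars2 (WT) and 20.4 (cKO). Over the 11 classes this figure had a median of 20.5 (WT) and 19.9 (cKO), and its highest and lowest classes differed 1.63-fold and 1.74-fold. The same figure for Lars differed between classes 5.38-fold (WT) and 7.5-fold (cKO).

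Across 28 clusters the log2 level of Lars2 followed that of Rn18s-rs5 with a Pearson correlation of 0.99 in each library (Spearman 0.98 and 0.99), clusters of a library sharing its preparation and depth. For Lars and Rn18s-rs5 the Pearson correlations were 0.25 (WT) and 0.22 (cKO). The differences between the libraries followed each other less closely than the levels: over the same clusters the log2 ratios of Lars2 and Rn18s-rs5 had a Pearson correlation of 0.73 (Spearman 0.64), and those of Lars2 and Mir6236 of 0.63 (Spearman 0.62). In T/NK-like cells the log2 ratio was −0.84 for Lars2, −0.54 for Rn18s-rs5 and −0.32 for Mir6236. Depth moved with the same counts. Lars2 stood at 1516 CPM in WT barcodes of 1000 to 3000 UMIs and at 371 CPM in those above 30000, and at 832 and 189 CPM in the cKO library. The other 16 mitochondrial enzymes stood at 545 and 590.4 CPM in the same WT barcodes and at 534 and 598 CPM in the cKO barcodes. In 1 unnamed cluster of shallow barcodes (median 1572 UMIs, 1581 WT and 527 cKO), Lars2 and Rn18s-rs5 were both among the 10 leading genes.

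The 9 annotated Lars2 transcripts (GENCODE vM21) share no identical run longer than 14 bases with the annotated mitochondrial ribosomal RNA genes, the 18S-like gene model, AY036118 or Mir6236. No other ribosomal RNA sequence was searched, and introns were not examined. The part of ribosomal RNA in the counts of Lars2 was not tested, and the medians and sums over all kept barcodes that include Lars2 are given with and without it.

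**Figure D3:**
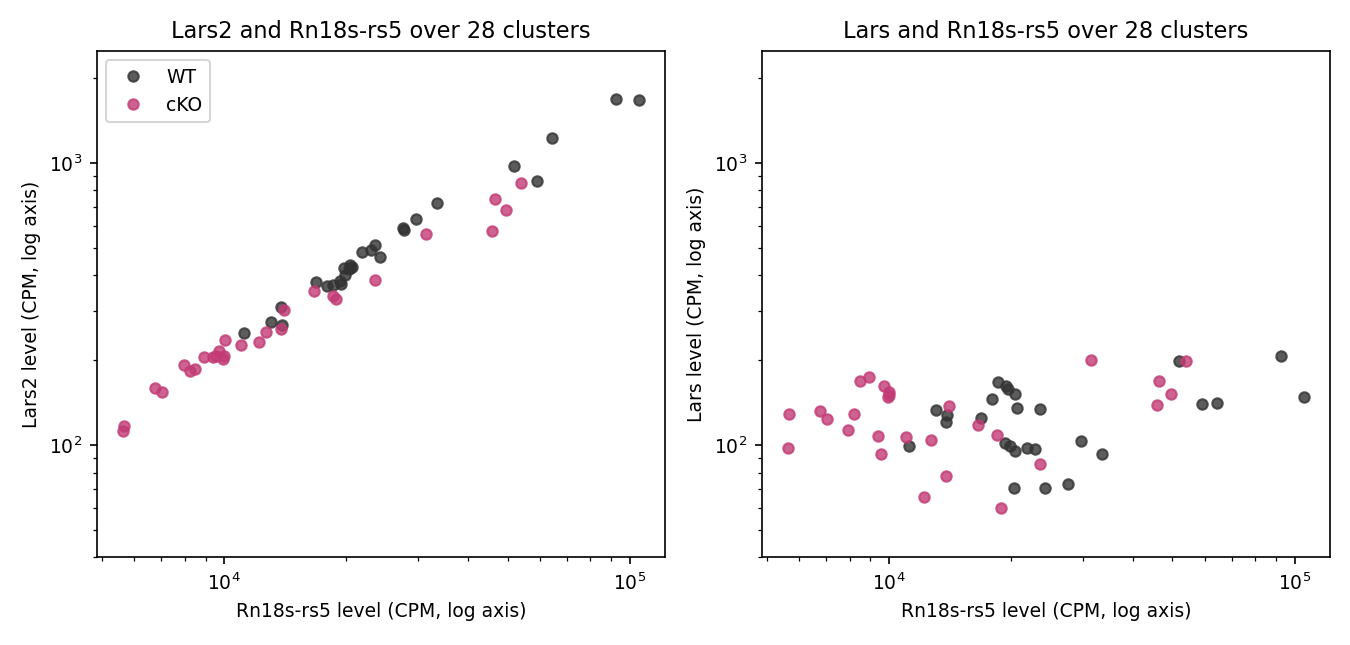
Level of Lars2 (left) and Lars (right) against that of the 18S-like gene Rn18s-rs5, in CPM on log axes; each point is 1 of 28 clusters in the WT (dark) or the cKO (pink) library. Lars2 lies on 1 line shared by both libraries (Pearson 0.99 in each), while Lars shows no such line (0.25 and 0.22).

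Cytosolic synthetases were most abundant in erythroid progenitor-like cells, with a summed 2220 CPM (WT) and 2242 CPM (cKO). Erythroblast-like cells followed with 1806 and 1797 CPM, then megakaryocyte-like cells with 1642 and 1743, GMP-like with 1544 and 1603, and HSC/MPP-like with 1399 and 1472 CPM. Plasma-like cells (1330 and 1194 CPM) and monocyte-like cells (1327 and 1370 CPM) were neighbours whose WT intervals overlapped. T/NK-like cells had 1203 and 1372, stromal/endothelial-like cells 1145 and 1136, and basophil/mast-like cells 1076 and 1179 CPM. The pDC-like cells were lowest with 990 and 998 CPM. The distance between the highest and the lowest class was thus far wider than that between the libraries in any class. Unnamed clusters are outside this ranking, and 1 of them (530 WT and 860 cKO barcodes) stood higher, at 2397 and 2360 CPM.

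Among the 11 classes, 22 of the 37 members had their highest WT level in erythroid progenitor-like cells, and 6 in erythroblast-like cells. The share of all genes that peak in these classes was not counted. Erythroid progenitor-like barcodes were also the deepest of the 11 classes, with a median of 43584 UMIs (WT). The pattern was shared by both compartments, with 11 cytosolic and 9 mitochondrial members peaking in erythroid progenitor-like cells. Eprs ran from 114 CPM in pDC-like to 328 CPM in erythroid progenitor-like WT cells. Aars, at 22.8 CPM in basophil/mast-like and 126 CPM in erythroblast-like WT cells, had the widest range of the cytosolic enzymes as a fold (5.53). Without Lars2 the mitochondrial sum was also highest in erythroid progenitor-like cells (682 CPM in the WT, 652 in the cKO library), but T/NK-like cells, low in cytosolic enzymes, came near it with 613 and 587 CPM. Fars2 and Wars2 peaked in those T/NK-like cells, at 270 and 60.9 CPM. Over the 11 classes the Pearson correlation of the cytosolic sum with the mitochondrial sum without Lars2 was 0.59 for WT and 0.68 for cKO.

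**Figure D4:**
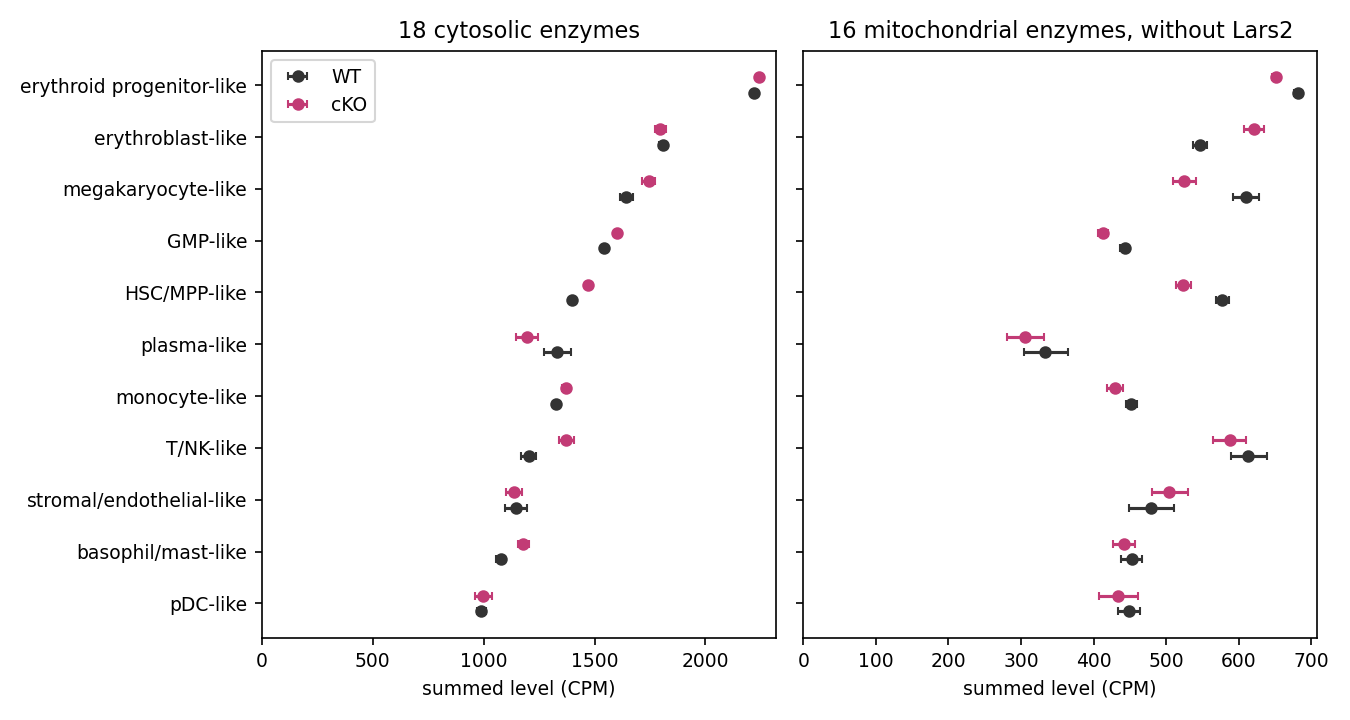
Summed level in CPM (x axis, from 0) of the 18 cytosolic enzymes (left) and the 16 mitochondrial enzymes without Lars2 (right) in each of 11 cell classes (y axis), in the WT (dark) and cKO (pink) libraries; bars are exact Poisson 95% intervals. Erythroid progenitor-like cells are highest in both panels, at 2220 and 682 CPM in the WT library. In each panel the highest and lowest class lie further apart than the libraries do in any class, while some classes lie closer together.

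Within classes the cytosolic enzymes were close to level between the libraries but mostly above the median of all genes. Their median lay above the median of all genes in 9 of 11 classes, with erythroblast-like and stromal/endothelial-like cells as exceptions, and in 25 of 28 clusters. It lay above 0 in 18 of the 28 clusters. In HSC/MPP-like cells it was 0.07 against −0.15 for all genes, with 12 of 18 enzymes above 0 and all 18 above that median; 1 (Sars) was called higher and 0 lower, beside 14.4% and 37.3% of all genes. In erythroid progenitor-like cells it was 0.03 against −0.08, and in T/NK-like cells 0.20 against 0.02, with 6 of 18 enzymes called higher, beside 26.7% of all genes.

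The cytosolic sum differed most between the libraries in T/NK-like cells, with a log2 ratio of 0.19 (0.13 to 0.24), and was lower in plasma-like cells at −0.16 (−0.24 to −0.07). The T/NK-like clusters were unlike in this. A cluster led by genes such as Cd3d and Cd3e went from 1294 to 1615 CPM. Another, led by genes such as Ncr1 and Gzma, went from 1103 to 1138 CPM. Plasma-like barcodes differed in depth, with a median of 2210 (WT) and 16150 UMIs (cKO), and the median of all genes there was −0.26. In erythroblast-like, pDC-like and stromal/endothelial-like cells the interval of the cytosolic sum's ratio included 0.

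Mitochondrial enzymes without Lars2 had unlike ratios in the 2 erythroid classes, a difference that was not tested and was not shared by all clusters. In erythroid progenitor-like cells their sum went from 682 to 652 CPM, a log2 ratio of −0.07 (−0.08 to −0.05). In erythroblast-like cells it went from 546 to 621 CPM, 0.18 (0.14 to 0.23), with 14 of 16 enzymes above 0, 8 called higher beside 23.6% of all genes, and a median of 0.28 against 0.06 for all genes. The highest of these were Wars2 (21.4 to 31.5 CPM; 0.56, 0.36 to 0.75), Ears2 (2.92 to 4.25 CPM; 0.54, −0.02 to 1.09) and Rars2, the arginine enzyme (30.1 to 43.2 CPM; 0.52, 0.36 to 0.69). Median depth in that class was 21221 UMIs (WT) and 13782 (cKO). In the largest cluster of the class (762 WT and 433 cKO barcodes) the median was 0.02. There Wars2 stood at 0.19, Rars2 at 0.06 and Ears2 at −0.15. A shallower cluster (203 and 266 barcodes) had a median of 0.27, with Wars2 at 0.42 and Rars2 at 0.55. With finer clusters, at Leiden resolution 2.5, the median of the class turned to −0.04, so it depends on where the class is drawn. In HSC/MPP-like, GMP-like and megakaryocyte-like cells the same sum was lower in the cKO library, with log2 ratios of −0.14 (−0.18 to −0.10), −0.10 (−0.13 to −0.07) and −0.22 (−0.28 to −0.16).

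HSC/MPP-like cells had Gars (74.6 to 92.2 CPM; 0.31, 0.21 to 0.40) and Yars2 (18.9 to 23.1 CPM; 0.29, 0.10 to 0.47) at the upper end. At the lower end, after Lars2, stood Ears2 (9.65 to 7.46 CPM; −0.37, −0.67 to −0.08). In megakaryocyte-like cells Wars2 was lowest after Lars2, at 51.4 CPM (WT) and 30.9 CPM (cKO) (−0.74; −0.97 to −0.50), while Pars2 and Sars were highest; Pars2, at 0.54 (−0.20 to 1.33), rested on 25 and 41 UMIs. In basophil/mast-like cells Aars2 (0.58; 0.14 to 1.03) was highest on 78 and 98 UMIs.

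**Figure D5:**
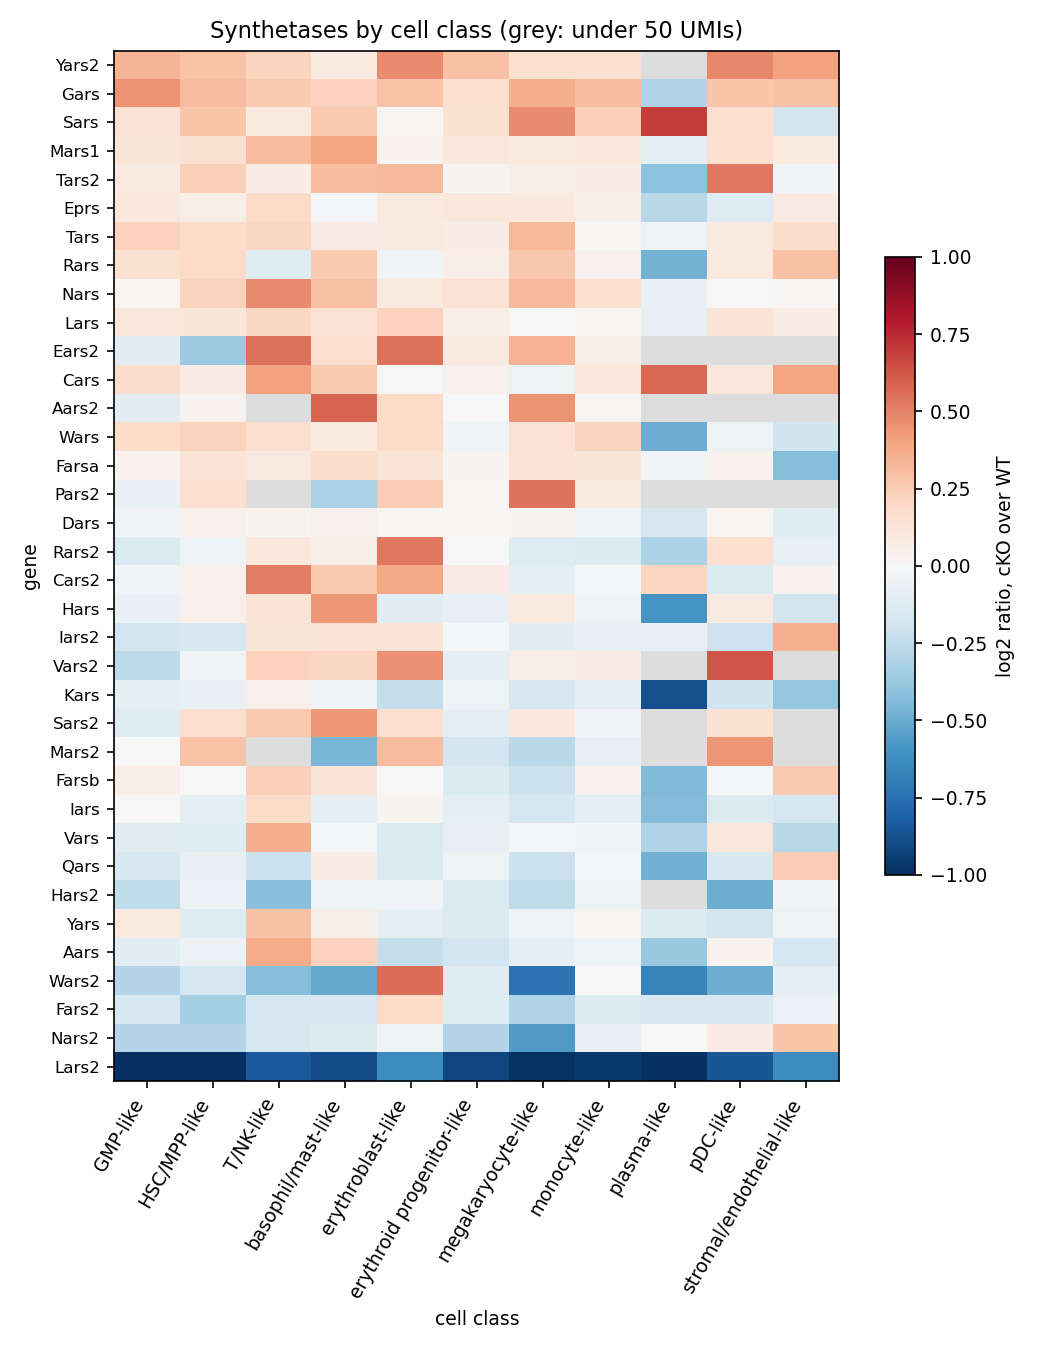
The log2 ratio of cKO over WT CPM (colour, shown up to 1 in either direction) for 36 of the 37 members (y axis, ordered by the ratio over all kept barcodes) in 11 cell classes (x axis); grey marks fewer than 50 UMIs. Lars2 is blue in every class, Yars2 red in all 10 classes where it was measured, and plasma-like cells hold the most blue, with a median of all genes of −0.26.

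Partners of the synthetases outside the symbol rule mostly stood higher in the cKO library. Of 16 measured genes of tRNA charging and its neighbours 13 lay above 0 and 7 were called higher and 0 lower, beside 16.9% and 32% of all genes, with a median of 0.22. With the WT mix of clusters 12 lay above 0 and 3 were called higher, beside 13.2% of all genes, and the median was 0.13. The 3 scaffold proteins of the multisynthetase complex were all called higher: Aimp1 went from 161 to 206 CPM (0.36), Aimp2 from 45.1 to 61.9 CPM (0.46) and Eef1e1 from 52.8 to 75.01 CPM (0.51). Each lay above 0 in 10 of 11 classes, all but plasma-like cells. With the WT mix their ratios were 0.24, 0.30 and 0.30, so that Aimp1 was no longer called. In HSC/MPP-like cells their log2 ratios were 0.28 (0.22 to 0.35), 0.45 (0.33 to 0.57) and 0.52 (0.39 to 0.65).

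Genes of editing and tRNA maturation stood on the same side. Aarsd1, an editing factor for misloaded alanine tRNA, went from 2.58 to 3.72 CPM (0.53), and Dtd2, a deacylase that removes wrongly loaded amino acids, from 18.1 to 22.5 CPM (0.31). Trnt1, which adds the CCA end to tRNA, went from 58.6 to 71.8 CPM (0.29). Gatb, Gatc and Qrsl1 encode the amidotransferase by which mitochondria make glutaminyl-tRNA, for which the family has no mitochondrial enzyme. Their log2 ratios were −0.00, 0.16 and −0.06, and 0 of 3 were called.

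The amino acid stress list, which shares its regulator ATF4 with 12 members, moved in both directions. Of its 15 genes 4 were called higher and 2 lower, beside 16.9% and 32% of all genes, and 8 lay above 0, beside 38.9% of all genes. Asns, the asparagine synthetase, went from 89.9 to 126 CPM (0.48), Phgdh, of serine synthesis, from 126 to 159 CPM (0.33) and Ddit3 from 25.9 to 31.5 CPM (0.28); Chac1 (0.59) lay at 0.151 and 0.228 CPM. Slc7a11, the cystine transporter, went from 1.47 to 0.841 CPM (−0.81) and Sesn2 from 8.74 to 7.06 CPM (−0.31). Atf4 itself stood at 141 and 130 CPM (−0.12) and was below 0 in 11 of 11 classes. Ddit3 was above 0 in 11 of 11 classes and Phgdh in 10 of 11.

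Thumpd1, the adaptor of NAT10 on tRNA, stood at 47.9 and 55.4 CPM (0.21) and was above 0 in 11 of 11 classes.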

How the data were processed

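Lineage-depleted bone marrow cells gave 1 WT and 1 Nat10 cKO library. The deposited count values give the UMIs of each gene in each barcode; reads were aligned to mm39 and counted with Cell Ranger 7.1.0, per the submitters' processing notes. How cells were called was not given in the sources used here. Gene spans and transcripts came from GENCODE vM21, in which 91.8% of gene IDs and all 37 members were found, and promoters from RefSeq (GRCm38.p6). The members, lists and rules were chosen with earlier results of these data known.

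A barcode was kept from 1000 UMIs and 500 genes upward where mitochondrial genes held no more than 10% of its UMIs. Scrublet, in scanpy 1.11.5, called 5.08% of WT and 4.80% of cKO barcodes doublets; they were kept, and removed in an alternative. Across the libraries 67 barcodes, 40 of them kept, were shared. Counts were scaled to 10000 per cell, and 2000 variable genes (no synthetase among them), 30 principal components and 15 neighbours entered Leiden clustering (resolution 1.5; leidenalg 0.10.2, igraph 0.11.9). A cluster took the class with most markers among its 10 leading genes, and where classes tied, also at 0, the class of which most of the listed markers, as a share, were detected at a fold of 2 and a mean of 0.2. At least 3 had to be detected. Clusters far shallower than their libraries whose leading genes held no marker were not named.

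UMIs were summed per library and class, scaled to CPM, and log2 ratios taken with 0.5 added (numpy 2.4.6, scipy 1.17.1, Python 3.11.15). Intervals of 95% are exact conditional binomial for ratios, exact Poisson for sums and normal on the log scale for differences of ratios; PCR and capture error are not in them. The floor was 50 UMIs and the fold for a call 1.2. The calculation of ratios was checked on simulated counts. TMM scaling used edgeR 4.0.16. In the reweighted alternative each cKO cluster was given the UMI share of the same WT cluster.

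Named members are the serine and leucine enzymes, the 5 highest and 5 lowest ratios, the 2 highest and 2 lowest in each class, the 3 highest and 3 lowest WT levels, and pathway genes; Farsb, Hars, Hars2, Iars, Rars, Rars2, Tars, Vars and Yars were named after their values were seen. The values of 1 member are not reported here by name; it is in all counts, medians and sums.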

Additional observations from a re-analysis of the deposited data

Results flagged for a closer look

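Some members had log2 ratios of opposite sign in 2 cell classes, with intervals that both left out 0. The 4 given below were also past the 1.2-fold call on both sides. Fars2 (0.20 in erythroblast-like, −0.34 in HSC/MPP-like cells) and Eprs (0.20 in T/NK-like, −0.28 in plasma-like cells) were not called on the higher side. How many of all genes did the same was not counted. None of these differences was tested, as each class has 1 library per genotype. Hars, the cytosolic histidine enzyme, stood at 0.43 in basophil/mast-like and −0.59 in plasma-like cells. Rars, the arginine enzyme, stood at 0.27 in megakaryocyte-like and −0.47 in plasma-like cells. Vars, the valine enzyme, stood at 0.36 in T/NK-like and −0.30 in plasma-like cells. In the plasma-like class, which is the lower side of these 3, the median of all genes was −0.26. Wars2 stood at 0.56 in erythroblast-like and −0.74 in megakaryocyte-like cells, where the medians of all genes were 0.06 and −0.09. In the single erythroblast-like clusters where Wars2 was measured it stood at 0.19 and 0.42, below the value of the class.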

How the results depend on the processing

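No paired analysis was possible because each genotype has 1 library. TMM scaling added 0.09 to every ratio: medians were then 0.22 (cytosolic), 0.17 (mitochondrial) and 0.17 (mitochondrial without Lars2), Lars 0.28, Sars 0.36, Lars2 −0.83 and Sars2 0.15, summed levels 0.23, −0.23 and 0.10, and 11 members were called higher. With the WT mix of clusters the medians were 0.031, −0.037 and −0.031, Lars 0.054, Sars 0.15, Lars2 −0.91, Sars2 −0.016, Sars2 minus Lars2 0.90, summed levels 0.011, −0.38 and −0.071, 0 members were called higher, and 3 other genes of the pathway were, an alternative chosen after seeing the data. Against genes of like span the medians were 0.24, 0.15 and 0.16, Lars 0.38, Sars 0.33, Lars2 −0.73, Sars minus Lars −0.045 (above 0 in 3 classes), Sars2 minus Lars2 0.83, summed levels 0.25, −0.17 and 0.16, and 11 members were called higher, beside 22.2% of all genes. With every cell weighed alike Lars was 0.15, Sars minus Lars 0.13 and the summed levels 0.12, −0.47 and −0.020. Without called doublets Lars2 was −0.95 and the mitochondrial sum −0.34. At a fold of 1.5, 0 members were called higher, beside 5.94% of all genes. The median of mitochondrial enzymes without Lars2 in erythroblast-like cells turned to −0.035 at Leiden resolution 2.5. Lars2 was called lower in all 9 settings run over all kept barcodes and at the fold of 1.5. The causes were not tested. Among the remaining alternatives, 90 main values and 399 values of single members or classes moved by less than the counting interval or, for counts, by less than 1.5 times; 151 values of single members or classes moved by more, and no called value among them changed sign. Depth limits Pars2, Aars2, Ears2 and the plasma-like, pDC-like, T/NK-like and stromal/endothelial-like classes, where 28, 34, 34 and 31 of 37 members reached 50 UMIs.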
